A study of Mus musculus with 3 samples.

Results

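Mitotic epithelial cells of expanding mouse cochlear organoids were defined by the transcripts they held. A cell was counted where it came from the expansion library, carried at least 1 UMI (unique molecular identifier, a counted transcript) of Epcam and at least 4000 UMIs in all, and held at least 8 UMIs summed over Ube2c, Plk1, Cenpf, Aspm and Tpx2. There were 4709 such cells, of 29098 barcodes in the expansion library and 50163 in the whole series. They made up 32.4% of the 14535 Epcam-positive cells of that depth (exact 95% interval 31.6 to 33.2%). Epcam-positive cells of the same minimum depth with a sum of 0 or 1 (5440 cells) served as the reference, and the 4386 cells with a sum of 2 to 7 belonged to neither class.

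The organoids were grown from Lgr5-positive cochlear progenitor cells of C57BL/6 mice, and each of the 3 groups was 1 library of the 10x Genomics 3′ kind. Expansion organoids were taken at passage 2, day 8, from medium with CHIR99021, LPA and Y-27632 beside IGF, bFGF and EGF. Organoids of differentiation day 5 had been moved to medium with RA, Shh, BDNF, bFGF, A83-01 and LY4115775, and those of day 25 had been kept in the same medium without LY4115775 after the first 5 days. All cells were trypsin-dissociated and sorted as single living cells, and how many animals or organoids entered a library is not given in the sources used here. With 1 library per group, no test between groups or between classes of cells was possible: cells of a library are not replicates, and every interval below covers counting error only.

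Before a cell divides, it passes from DNA synthesis (S phase) through a gap (G2) into mitosis. Entry into mitosis is driven by cyclin B and its kinase Cdk1 and by the kinases Plk1 and Aurora A, the spindle then pulls the chromosomes apart at their kinetochores, and the anaphase-promoting complex ends mitosis by marking cyclin B and securin for destruction. The genes for these proteins are transcribed late in the cycle, so their transcripts mark cells in G2 and mitosis together. In the mammalian cochlea, hair cells and most supporting cells leave the cycle before birth, and organoid culture makes Lgr5-positive progenitors of the young cochlea divide again.

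Of the genes that defined the cells, Ube2c codes for a ubiquitin-conjugating enzyme of the anaphase-promoting complex, Plk1 for polo-like kinase 1 and Cenpf for a kinetochore protein. Aspm codes for a spindle pole protein and Tpx2 for a spindle assembly factor that activates Aurora A. In GRCm38, Ube2c lies on chromosome 2 (164769898 to 164778822, plus strand), Plk1 on chromosome 7 (122159439 to 122169873, plus strand), Cenpf on chromosome 1 (189640606 to 189688086, minus strand), Aspm on chromosome 1 (139454772 to 139494091, plus strand) and Tpx2 on chromosome 2 (152847964 to 152895321, plus strand). All are protein-coding genes.

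Promoters of late-cycle genes are known for the cell cycle homology region, a short element read by MuvB complexes, and for CCAAT boxes, read by NF-Y. Windows of RefSeq (GRCm38.p6, 250 bases before to 50 after a gene's start) were searched on both strands for TTTGAA or TTCGAA, the cores of the element, and for CCAAT; the motifs do not overlap one another. Either core was present in the windows of 21.7% of 27025 genes and a CCAAT box in 41.1%. The element was found in 68 of 101 matched genes of the mitotic lists described below (67.3%, from 125 listed), and a CCAAT box in 71 (70.3%). Ube2c, Plk1, Cenpf and Aspm each held both, and Tpx2 had no window. The share for S phase genes is void as a check, since 40 of 52 had a window, fewer than 80%. Among those 40, the element was found in 8 (20.0%) and a CCAAT box in 26 (65.0%), the latter near the share in the mitotic lists. The stretches below run from 100 bases before the start to 14 after the start base and are shown because the element lies close to the start in all of them; capitals mark the core TTTGAA and the box, or their reverse complements. They lie at chr2:164769829-164769943 (Ube2c, plus strand), chr1:189688072-189688186 (Cenpf, minus strand), chr1:139454673-139454787 (Aspm, plus strand), chr4:118437329-118437443 (Cdc20, minus strand) and chr11:40733423-40733537 (Hmmr, minus strand). Counted from the start base as 0, the element began at -29 in Ube2c (minus strand of the gene), 2 in Cenpf, 6 in Aspm, -18 in Cdc20, 8 in Hmmr and, outside the length shown, 30 in Plk1. A match is a description of letters and not a site. In Ccnb1, whose level is given below, the window held CCAAT boxes at -99 and -67 and neither core of the element.
Ube2c: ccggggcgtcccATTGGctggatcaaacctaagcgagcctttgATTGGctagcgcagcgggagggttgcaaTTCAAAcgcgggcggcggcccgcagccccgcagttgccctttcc
Cenpf: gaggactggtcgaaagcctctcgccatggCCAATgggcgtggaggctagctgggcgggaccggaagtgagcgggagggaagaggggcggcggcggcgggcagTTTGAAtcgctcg
Aspm: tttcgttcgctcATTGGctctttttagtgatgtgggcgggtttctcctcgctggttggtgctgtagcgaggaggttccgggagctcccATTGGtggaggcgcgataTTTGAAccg
Cdc20: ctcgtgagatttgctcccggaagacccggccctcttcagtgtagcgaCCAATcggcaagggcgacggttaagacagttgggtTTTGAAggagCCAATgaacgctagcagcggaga
Hmmr: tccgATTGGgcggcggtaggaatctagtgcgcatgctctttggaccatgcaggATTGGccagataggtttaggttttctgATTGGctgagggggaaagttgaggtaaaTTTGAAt

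The 5 defining genes chose the cells, so their values are a description. Mitotic cells held a median of 16 UMIs of the 5 genes (range 8 to 100). Ube2c gave 52.6% of those UMIs and was the most counted of the 5 in 4033 of the 4709 cells; without it, 51.3% of the cells would have fallen under the bound of 8. Cenpf gave 26.0%, Tpx2 11.8%, Plk1 5.79% and Aspm 3.79%. All 5 genes were seen in 1252 mitotic cells, 4 in 1899, 3 in 1289, 2 in 252 and 1 in 17. Just inside the bound, the 373 cells with a sum of 8 had a median of 10302 UMIs, and just outside it the 404 cells with a sum of 7 had 10050.

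The expansion library differed from the differentiating organoids in how the sum was spread. In expansion, 22.2% of the Epcam-positive cells with at least 4000 UMIs had a sum of 0 and 2.99% a sum of 32 or more. On day 5, 24 of 7065 such cells reached a sum of 8 (0.340%, exact interval 0.218 to 0.505%), and 90.8% had a sum of 0. On day 25, 5 of 4645 did (0.108%, 0.0350 to 0.251%), and 91.5% had a sum of 0. The 3 intervals do not overlap between expansion and either later library, while those of day 5 and day 25 do.

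**Figure D1:**
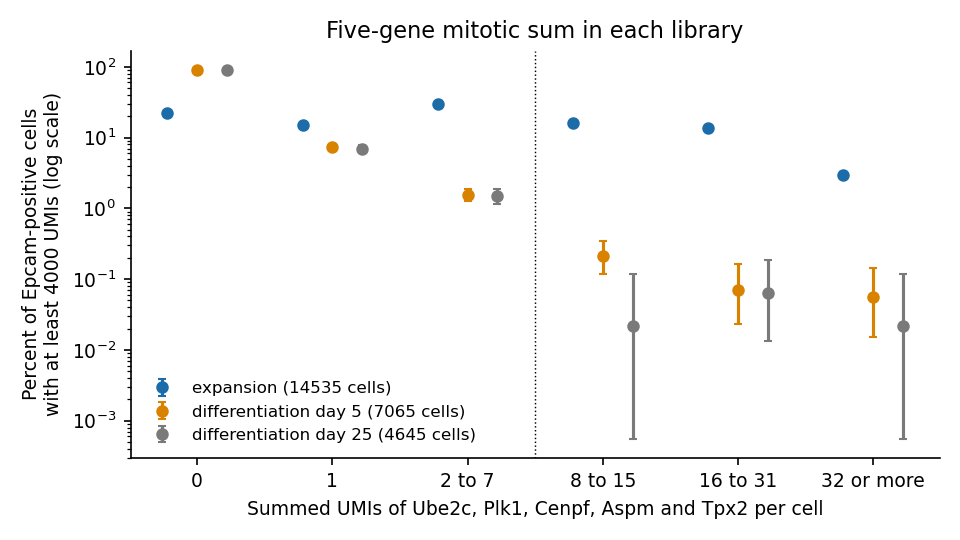
Percent of Epcam-positive cells with at least 4000 UMIs (vertical axis, log scale) in each range of the summed UMIs of Ube2c, Plk1, Cenpf, Aspm and Tpx2 (horizontal axis), for the 3 libraries; bars are exact 95% binomial intervals and the dotted line is the bound of 8. To the right of the line lie 4709 of 14535 expansion cells, 24 of 7065 cells of day 5 and 5 of 4645 cells of day 25.

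The label was checked against markers. Epcam itself helped to choose both classes, so its values are a description and no check. Mitotic cells held a median of 10 Epcam UMIs, and 93.5% held 3 or more; the Epcam level was 665 CPM (UMIs per 1000000 of the summed UMIs of a class) in mitotic and 787 CPM in reference cells. The adhesion and junction genes Cdh1 (51.7 and 41.7 CPM), Cldn7 (266 and 268 CPM) and Spint2 (302 and 341 CPM) were short of a 1.5-fold difference between mitotic and reference cells, against 8.39, 27.3 and 54.0 CPM in Epcam-negative cells of the library with a sum of 0 or 1. Of the 11 measured genes of the epithelial list 0 were higher in mitotic cells and 2 lower at that bound, the keratins Krt18 (log2 ratio of CPM + 1 of -1.44) and Krt8 (-1.35). With the reference weighted for depth, or without called doublets, both introduced below, 3 were lower, the third being Cldn6 (-0.65 and -0.81). The summed level of 5 macrophage markers was 1.91 CPM in mitotic cells and 1.90 CPM in reference cells, with Ptprc at 0 UMIs. The 6 glial markers summed to 18.8 and 28.1 CPM (Foxd3 at 0), the 6 neuronal markers to 7.22 and 8.995 CPM (Neurod1 at 0) and the 5 melanocyte markers to 2.41 and 2.32 CPM (Tyr at 0). The 16 mesenchyme markers summed to 862 CPM in mitotic and 909.7 CPM in reference cells, and the 5 endothelial markers to 42.3 and 66.9 CPM. Emcn gave most of both endothelial sums. Of the mesenchyme markers, Col1a2 was at 0 UMIs in mitotic cells and Col1a1 at 0.0530 CPM, while Dcn and Lum stood at 375 and 262 CPM in mitotic and at 341 and 270 CPM in reference cells. Col1a1 was at 0 UMIs in those Epcam-negative cells as well, so its low level does not set mitotic cells apart from them. Otor, of the same list, was seen in 85.4% of those cells when each cell was thinned to 4000 UMIs. It was seen in 21.4% of mitotic and 21.7% of reference cells.

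Depth and called doublets differed between the classes in every comparison of mitotic with reference cells. The median mitotic cell held 14262 UMIs and 3670 genes, and the median reference cell 6052 UMIs and 2021 genes. Doublets, called here against simulated ones, made up 54.4% of mitotic, 44.1% of intermediate and 24.1% of reference cells; they were kept unless stated. For depth, the reference was also weighted to the depths of the mitotic cells, over 4161 mitotic cells in 12 depth bins that held enough reference cells (548 were left out). Whether depth or doublets take part in the differences was not tested. Ribosomal protein genes took 32.3% of UMIs in mitotic and 33.9% in reference cells, and mitochondrially encoded genes 5.76 and 6.19%. The expansion library shared 133 barcodes with day 5 and 54 with day 25, of which 28 and 10 were mitotic cells.

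Genes with at least 20 CPM in either class were compared, 5628 in all, and a gene was called where CPM + 1 differed at least 1.5-fold; log2 ratios below are of CPM + 1, mitotic over reference. Of these genes, 5.31% were higher in mitotic cells and 1.56% lower (7.02 and 2.95% against the depth-weighted reference). The median log2 ratio over all of them was 0.10. Late-cycle genes other than the 5 that defined the cells were higher almost throughout. Of 142 measured genes of the fixed cycle lists, S phase included, 108 were higher, with a median log2 ratio of 1.47, or 1.74 against the depth-weighted reference. The lists are textbook lists of cell cycle genes whose transcripts rise together with the defining genes, so their direction is no independent evidence.

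Among cyclins and entry factors, 10 of 10 measured genes were higher (median log2 ratio 1.88). Ccnb1, cyclin B1, stood at 118 CPM in mitotic and 15.8 CPM in reference cells, a ratio of 7.47 (95% counting interval 6.90 to 8.11). Ccna2, cyclin A2, stood at 84.5 and 15.97 CPM, and Ccnb2, cyclin B2, at 71.2 and 19.3 CPM. Their kinase Cdk1 was at 204 and 53.0 CPM, a ratio of 3.85 (3.68 to 4.03). Foxm1, a transcription factor of late-cycle genes, was at 22.6 and 4.81 CPM, and Wee1, the kinase that holds Cdk1 back, at 40.6 and 17.3 CPM. Drivers of entry and its brake were both among the genes that were higher.

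All 7 measured mitotic kinases were higher (median 2.24). Aurka, which codes for Aurora A at spindle poles, was at 43.3 CPM in mitotic and 5.79 CPM in reference cells (ratio 7.47, 6.54 to 8.56), and Aurkb, Aurora B, at 61.7 and 11.4 CPM. Bub1b and Ttk, kinases of the spindle checkpoint, had ratios of 5.49 (4.94 to 6.11) and 5.13 (4.45 to 5.94). The other parts of the Aurora B complex, Incenp, Cdca8 and Birc5, had ratios of 5.45, 4.72 and 4.597.

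Of 6 measured genes of the anaphase-promoting complex and its regulators, 4 were higher (5 against the depth-weighted reference or without called doublets). Cdc20, the activator used in mitosis, was at 103 and 19.8 CPM, a ratio of 5.17 (4.80 to 5.56). Fzr1, the activator used on leaving mitosis, was at 65.2 and 23.9 CPM, and Fbxo5, an inhibitor of the complex, at 47.3 and 17.7 CPM. Pttg1, securin, whose protein the complex destroys, was at like levels: 28.0 CPM in mitotic and 28.4 CPM in reference cells, a ratio of 0.987 (0.918 to 1.06).

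At the kinetochore, 14 of 15 measured genes were higher (median 2.23). Cenpe, a kinetochore motor, was at 79.8 and 9.41 CPM (ratio 8.48, 7.64 to 9.42), Knl1, a scaffold of checkpoint proteins, at 44.0 and 6.33 CPM, and Cenpa, the centromeric histone, at 268 and 43.6 CPM. The gene that was not higher was Zwint, at 60.6 and 56.2 CPM. All 9 measured mitotic kinesins, the motors of the spindle, were higher, with log2 ratios of 1.98 to 2.79, Kif2c having the largest ratio (8.15, 7.04 to 9.48) and Kif15 the smallest (4.19, 3.81 to 4.62).

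Spindle genes included the largest ratios outside the defining genes. Fam83d was at 23.4 and 1.80 CPM (ratio 13.02, 10.3 to 16.7), Nusap1, a microtubule-binding protein, at 110 and 10.6 CPM (10.4, 9.43 to 11.5), and Hmmr, a spindle-associated receptor for hyaluronan, at 55.1 and 5.42 CPM (10.2, 8.87 to 11.7). In all, 10 of 11 measured spindle genes were higher; Tubg1, gamma-tubulin, had a ratio of 1.36 and was past 1.5-fold against the depth-weighted reference (log2 0.83). All 6 cytokinesis genes were higher, among them Prc1, the midzone bundler, at 113 and 13.2 CPM and Anln, anillin, at 30.2 and 4.34 CPM. Mki67, the source of the Ki-67 protein, was at 213 and 29.99 CPM (7.08, 6.68 to 7.52), and Top2a, topoisomerase II alpha, at 391 and 69.2 CPM (5.66, 5.44 to 5.88).

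Nuclear envelope genes differed less: Tmpo had a ratio of 2.49, Lmnb1, lamin B1, of 2.12, and Lbr, the lamin B receptor, of 1.97, while Nde1 had 1.29. The histone variant genes H2afx and H2afz had ratios of 4.03 and 2.02. Members of the late-cycle lists thus differed among themselves from a ratio near 1 (Pttg1, Zwint) to one near 13 (Fam83d), with no measured member of these lists lower.

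**Figure D2:**
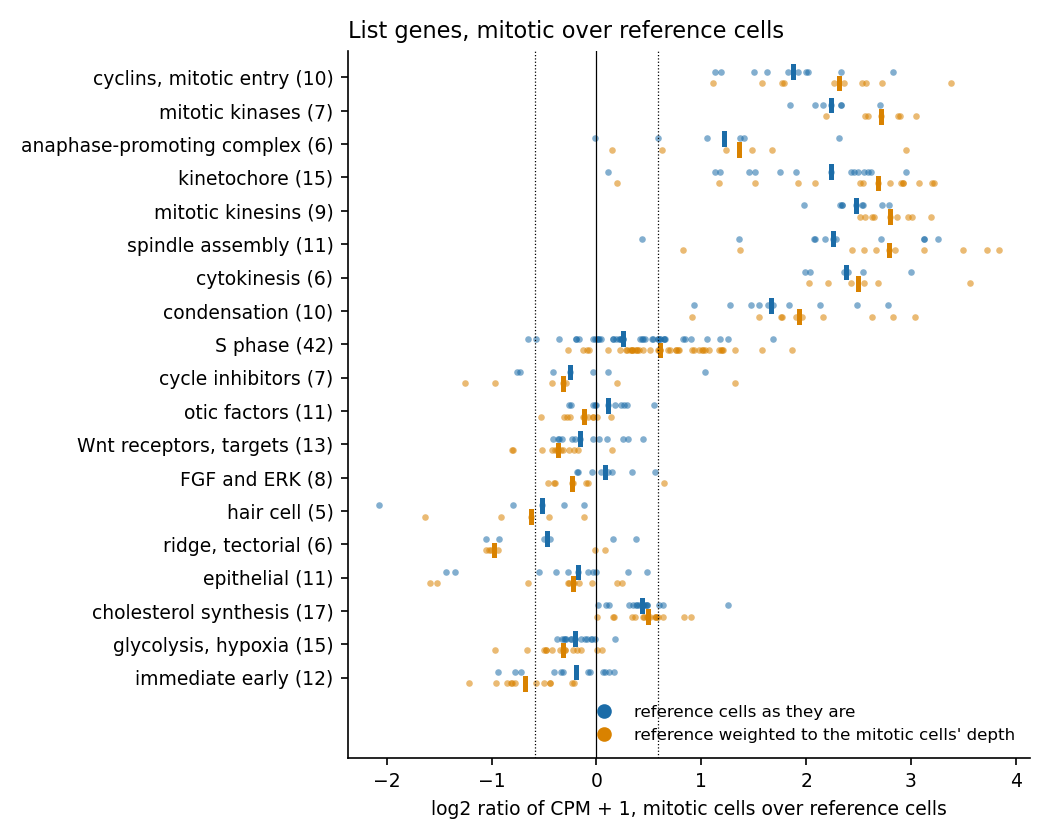
Log2 ratio of CPM + 1, mitotic over reference cells (horizontal axis), of each measured gene of 19 lists (rows, number of genes in brackets); blue points use the reference cells as they are, orange points the reference weighted to the mitotic cells' depth, bars are list medians and dotted lines are 1.5-fold. Rows from cyclins to condensation lie right of the lines apart from single genes, the S phase row is spread about a median of 0.25, and most other rows lie near 0.

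S phase genes were split. Of 42 measured, 14 were higher and 1 lower, and the median log2 ratio was 0.25. Against the depth-weighted reference 24 were higher and 0 lower (median 0.61). Pclaf, the PCNA-associated factor, was at 528 CPM in mitotic and 164 CPM in reference cells (ratio 3.22, 3.14 to 3.31), Rrm1, the large subunit of ribonucleotide reductase, at 92.7 and 38.3 CPM, and Blm, a helicase, at 24.6 and 10.3 CPM. Uhrf1, a reader of hemimethylated DNA, was at 50.2 and 32.5 CPM and Fen1, the flap endonuclease, at 29.0 and 18.8 CPM. Pcna, the replication clamp, was at 44.4 and 45.4 CPM, Mcm5 of the replicative helicase at 42.1 and 35.3 CPM, and Ccne2, cyclin E2, at 15.1 and 22.9 CPM, each short of 1.5-fold. Ung, a uracil glycosylase, was the gene that was lower, at 16.3 and 26.2 CPM; against the depth-weighted reference it was short of 1.5-fold (log2 -0.27). Replication-linked histone genes, of which 10 of 67 were measured, were higher in 6, Hist1h2ap (326 and 90.1 CPM) and Hist1h1b (112 and 42.0 CPM) among them.

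The levels moved in steps with the 5-gene sum. Top2a went from 69.2 CPM at a sum of 0 or 1 through 207 CPM at 2 to 7 and 344 CPM at 8 to 15 to 402 CPM at 16 to 31 and 503 CPM at 32 or more, and Ccnb1 from 15.8 through 48.4, 94.5 and 126 to 164 CPM. Ung took the opposite course, from 26.2 through 23.7, 17.7 and 16.1 to 12.6 CPM. Depth rose along the same steps, from a median of 8113 UMIs at 2 to 7 to 11209 at 8 to 15 and 22855 at 32 or more, and its part in the levels was not tested.

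**Figure D3:**
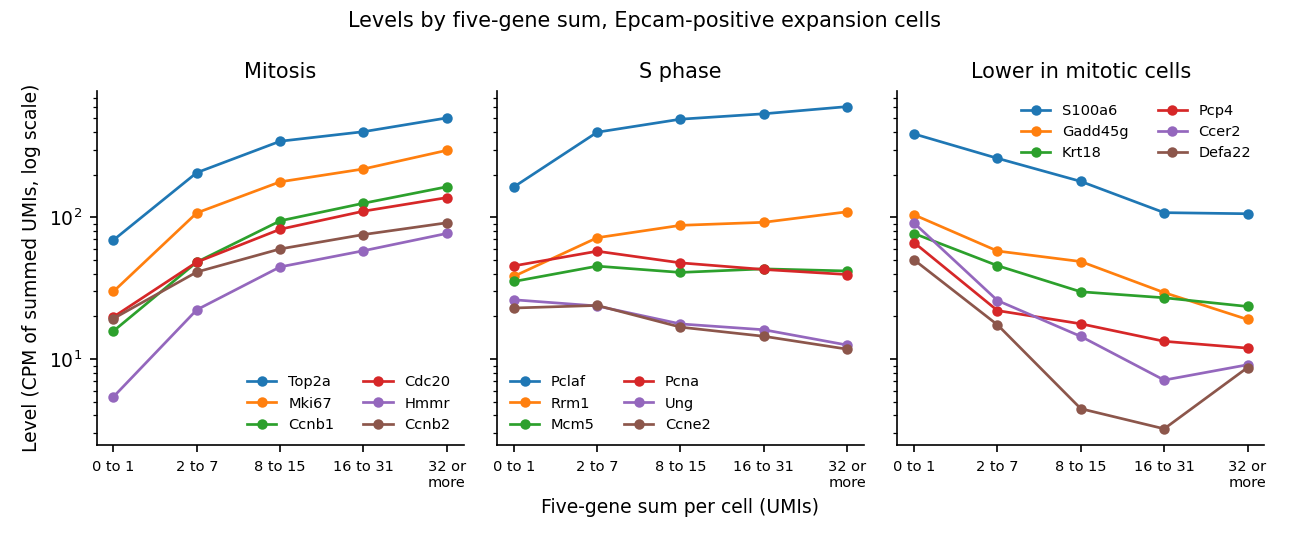
Level in CPM of summed UMIs (vertical axis, log scale) of 6 late-cycle genes, 6 S phase genes and 6 genes that were lower in mitotic cells, by the 5-gene sum of the cells (horizontal axis); each point is the sum over all Epcam-positive expansion cells of that range. Top2a goes from 69.2 to 503 CPM, Pcna, at 45.4 CPM on the left, has no steady course, and S100a6 is highest at a sum of 0 or 1.

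The mitotic cells held 47.0% of all UMIs of the Epcam-positive cells of at least 4000 UMIs, which is the share a gene would have if it were spread evenly. They held 82.7% of the Ube2c UMIs, a description only, since Ube2c helped to choose them. Of genes outside the rule, they held 76.1% of the UMIs of Ccnb1, 72.8% of Mki67, 71.1% of Top2a and 62.1% of Pclaf. For Mcm5 the share was 48.0%, for Pcna 43.2% and for Lgr5, the receptor that marks the progenitors, 50.9%.

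Cyclins and inhibitors of the G1 phase differed in direction. Ccnd1, cyclin D1, was at 465 and 358 CPM (ratio 1.299), and Cdk4, its kinase, at 445 and 416 CPM, both short of 1.5-fold. Ccnd2, cyclin D2, was lower in mitotic cells, at 68.2 against 110 CPM (ratio 0.621, 0.596 to 0.646), but short of 1.5-fold against the depth-weighted reference (log2 -0.57). Among 7 measured inhibitors, 1 was higher and 2 lower. Cdkn2d, p19, was at 44.2 CPM in mitotic and 21.1 CPM in reference cells. Cdkn1c, p57, which holds cochlear and other epithelial cells out of the cycle, was at 141 and 235 CPM (ratio 0.6003, 0.584 to 0.617), and Btg2, an antiproliferative gene, at 39.1 and 66.7 CPM. Cdkn1b, p27, the inhibitor known for keeping supporting cells quiescent, was at 41.3 and 38.2 CPM, and Cdkn1a, p21, at 134 and 160 CPM.

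Outside the cycle lists, 186 of 5481 genes were higher in mitotic cells (3.39%) and 87 lower (1.59%). Against the depth-weighted reference 270 were higher (4.93%) and 166 lower (3.03%), and without called doublets 284 and 188. The 15 genes with the largest ratios upwards at 50 CPM or more were largely also genes of chromosomes and the spindle that the lists had missed: Rad21 of cohesin, Bub3 of the spindle checkpoint, Cenpm of the centromere, Dbf4, which activates the replication kinase Cdc7, and the tubulins Tuba1b, Tuba1c and Tubb5. Lockd, a long noncoding RNA encoded beside Cdkn1b, led them, at 93.3 CPM in mitotic and 19.3 CPM in reference cells (ratio 4.84, 4.49 to 5.21). Dbf4 was at 64.6 and 17.5 CPM, Trim59 at 63.8 and 22.9 CPM, and Arl6ip1, which shapes the endoplasmic reticulum, at 437 and 178 CPM. Tubb5 was at 1028 and 514 CPM and Tuba1b at 560 and 274 CPM. Further genes among them were Hirip3, Nucks1, Cse1l and Ccdc34, with ratios of 2.37, 2.10, 2.08 and 2.03.

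The 15 genes with the largest ratios downwards held S100 genes, a keratin and genes of arrest. S100a13 was at 68.4 CPM in mitotic and 202 CPM in reference cells (2.95-fold higher in the reference, 2.84 to 3.05), S100a6 at 137 and 387 CPM (2.83-fold, 2.76 to 2.90) and S100a11 at 221 and 396 CPM (1.79-fold, 1.75 to 1.83). Krt18, keratin 18, was at 27.8 and 76.8 CPM (2.77-fold, 2.62 to 2.93), and its partner Krt8, from the epithelial list, at 12.01 and 32.1 CPM. Gadd45g, a growth arrest gene, was at 36.1 and 104 CPM (2.89-fold, 2.75 to 3.03), and Mxd4, which opposes Myc, at 34.0 and 64.8 CPM. Clu, clusterin, was at 29.2 and 61.9 CPM and Ckb, the brain form of creatine kinase, at 166 and 340 CPM. Rnase1, Bpifb5, Calml4 and Ivl were 2.25-fold, 2.13-fold, 2.08-fold and 1.84-fold higher in the reference.

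Defa22, Ccer2 and Pcp4 had the largest ratios of all downwards: 4.45 CPM in mitotic and 50.1 CPM in reference cells for Defa22, 10.4 and 91.1 CPM for Ccer2, and 14.97 and 66.3 CPM for Pcp4. Defa22 is an alpha-defensin, of a family of near-identical copies between which reads can be split, so its value is uncertain. Their UMIs were held by few cells, since after thinning each cell to 4000 UMIs 1.45% of reference cells held a Defa22 UMI, 3.00% a Ccer2 UMI and 5.17% a Pcp4 UMI, against 0.446, 1.51 and 3.91% of mitotic cells. In Epcam-negative cells with a sum of 0 or 1 the shares were 1.35, 3.66 and 4.06%, near those of the reference cells.

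Regulators of hair cell fate were scarce in mitotic cells. Atoh1, which starts that fate, was at 0.742 CPM in mitotic and 4.46 CPM in reference cells, Pou4f3 at 1.51 and 9.04 CPM and Gfi1 at 0.159 and 1.55 CPM, all under the 20 CPM at which genes were compared. Of the 5 hair cell genes past that level 2 were lower, Pcp4 and Myo6, an actin motor (28.4 and 50.2 CPM). The other 3, Cib2, Espn and Rasd2, were short of 1.5-fold. Against the depth-weighted reference Cib2 was lower too (log2 -0.63), and without called doublets as well 4 of the 5 were lower. In that last setting 318 of the 5481 genes outside the cycle lists were lower. A Pou4f3 UMI was present in 0.425% of mitotic cells thinned to 4000 UMIs (0.998% unthinned), in 1.82% of reference cells (2.24% unthinned) and in 2.44% of Epcam-negative cells of sum 0 or 1, at unthinned median depths of 14262, 6052 and 4592 UMIs. Without called doublets the shares were 0.0932% of mitotic and 1.26% of reference cells.

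Genes of the otic epithelium were short of 1.5-fold between the classes. Of 11 measured otic factors, 0 were higher or lower (median log2 ratio 0.11). Sox9 was at 219 and 225 CPM, Sox10 at 131 and 121 CPM and Gata3 at 96.2 and 65.4 CPM. Against the depth-weighted reference Sox9 had a log2 ratio of -0.53 and Sox10 turned to the other side of 0 (-0.28). Without called doublets and with depth weighting 1 of the 11 was lower, Sox9 (-0.74). Sox2 was too low to compare, at 3.27 and 4.81 CPM. Of 13 Wnt receptors and targets, 0 were higher or lower; Lgr5 was at 57.3 and 46.4 CPM (ratio 1.24, 1.17 to 1.31) and Axin2 at 132 and 111 CPM. Both turned to the other side of 0 against the depth-weighted reference (log2 -0.22 and -0.18), where 2 Wnt genes were lower, Dkk2 (log2 -0.79) and Wif1 (-0.80). Wif1 was also lower without called doublets (-0.63). With both changes 4 of the 13 were lower, beside 318 of the 5481 genes outside the cycle lists. Of 8 measured FGF and ERK genes, 0 were past 1.5-fold, Etv4, a target of FGF signalling, coming closest at 106 and 71.3 CPM; against the depth-weighted reference it was past it (log2 0.65), and likewise without called doublets (0.68).

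In the Notch list, Hes6 was lower in mitotic cells (42.2 and 67.6 CPM), while Notch1 (87.5 and 63.7 CPM), Jag1 (93.6 and 79.5 CPM), Hey2 and Hes1 were not past the bound. Against the depth-weighted reference 0 of the 5 were lower. Without called doublets Hes6 was lower again (log2 -0.80), and with both changes too (-0.67). Of 7 supporting cell genes, S100a1 was lower, at 226 and 397 CPM. With depth weighting Sparcl1 was lower too (log2 -0.76), and without called doublets as well Gjb2 was just past the bound (-0.59). Of 6 genes of the ridge beside the sensory epithelium and of the tectorial membrane, Clu and Otoa (14.1 and 27.8 CPM) were lower. With depth weighting Otog, a tectorial membrane protein (log2 -1.01), and Epyc (-1.03) were lower too, as they were without called doublets (-0.64 and -0.92). Col2a1 was at 158 and 122 CPM and Tecta at 23.2 and 20.6 CPM.

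Some list genes changed side with depth. Emcn, the measured member of the endothelial list, was lower in mitotic cells (40.2 and 64.5 CPM, log2 -0.67). It was short of 1.5-fold without called doublets (-0.45), lay on the other side of 0 against the depth-weighted reference (0.54) and was higher with both (0.92). Otor, a secreted otic protein, had a log2 ratio of -0.55 that became 0.52 with depth weighting and 1.15 with both. Both are abundant in Epcam-negative cells of sum 0 or 1 (533 CPM of Emcn and 1507 CPM of Otor), which have a median depth of 4592 UMIs. An Otor UMI was present in 21.4% of thinned mitotic cells and 21.7% of reference cells, in 11.97 and 11.85% of them without called doublets, and in 85.4% of those Epcam-negative cells. No direction is therefore given for either gene.

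Of 17 measured genes of cholesterol synthesis and its control 3 were higher in mitotic cells and 0 lower, with 3 higher against the depth-weighted reference and 4 without called doublets; the median log2 ratio was 0.43, and over all genes 0.10. Hmgcs1, which makes HMG-CoA, was past 1.5-fold, at 119 and 78.3 CPM, and just short of it with depth weighting (log2 0.57). Sqle was at 85.2 and 62.3 CPM and Msmo1 at 93.0 and 66.2 CPM, of which Msmo1 was past 1.5-fold with depth weighting (log2 0.83) and without called doublets (0.67).

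Of 15 glycolysis and hypoxia genes, 0 were higher or lower (median -0.20), and likewise 0 of 17 nuclear genes of the respiratory chain and 0 of 86 ribosomal protein genes. With depth weighting 2 of the glycolysis and hypoxia genes were lower, Car9 (log2 -0.97) and Vegfa (-0.66), and without called doublets as well 4 were. Of 12 immediate early genes 3 were lower, the transcription factor genes Atf3 (10.8 and 21.6 CPM) and Junb (65.6 and 113 CPM) and Ier3 (55.0 and 91.2 CPM). Without called doublets 4 were lower, with depth weighting 6, and with both 10. Of the 5481 genes outside the cycle lists 188, 166 and 318 were lower in those settings, in the same order, and 87 in the main comparison. Fos was at 168 and 213 CPM and Egr1 at 305 and 289 CPM.

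Which Epcam-positive cells were mitotic was asked at equal depth, with each cell thinned to 4000 UMIs and a sum of at least 4 UMIs taken as mitotic. By that measure 25.7% of the 14535 cells were mitotic, and 24.3% without called doublets. They were not the same set as the mitotic cells above. Of the 4709 cells, 66.45% met the thinned measure, and 605 of the 3734 cells that met it had an unthinned sum under 8. The share was nearly the same with and without a UMI of Lgr5, 25.3% (23.5 to 27.2%) of 2279 cells and 25.8% (25.0 to 26.5%) of 12256. It was 23.3% with and 28.1% without a UMI of Sox9, 21.7 and 28.1% for Dkk2, a Wnt antagonist, and 23.0 and 27.4% for Cdkn1c. For Cdkn1b it was the other way round, 29.2% (27.3 to 31.2%) with a UMI and 25.1% (24.3 to 25.9%) without.

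Of 24 genes for which the share was taken, 8 marked groups of cells with a share under 20%. Of the 1742 cells with a Krt18 UMI 16.3% were mitotic (14.5 to 18.1%), against 27.0% of those without. Gadd45g gave 18.0% of 2099 cells, Otoa 18.4% of 950, Fgf3, a growth factor, 14.9% of 549, Dkk4, a Wnt antagonist, 15.3% of 209, Ccer2 13.6% of 294 and Defa22 8.57% of 140. Of 145 cells with a Pou4f3 UMI 11 were mitotic (7.59%, 3.85 to 13.2%), and of the 64 that were not called doublets 2 were (3.13%, 0.381 to 10.8%). Pcp4, among the genes with the largest ratios downwards, gave 21.5% of 648 cells and Ccnd2 21.3% of 3435. With 2 or more UMIs the shares were smaller still for Krt18 (10.2% of 549 cells), Otoa (9.16% of 131) and Fgf3 (5.97% of 67). These genes lie partly among those picked for their difference between mitotic and reference cells. The shares thus restate that difference by cell, with the thinned sum in place of the unthinned one.

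**Figure D4:**
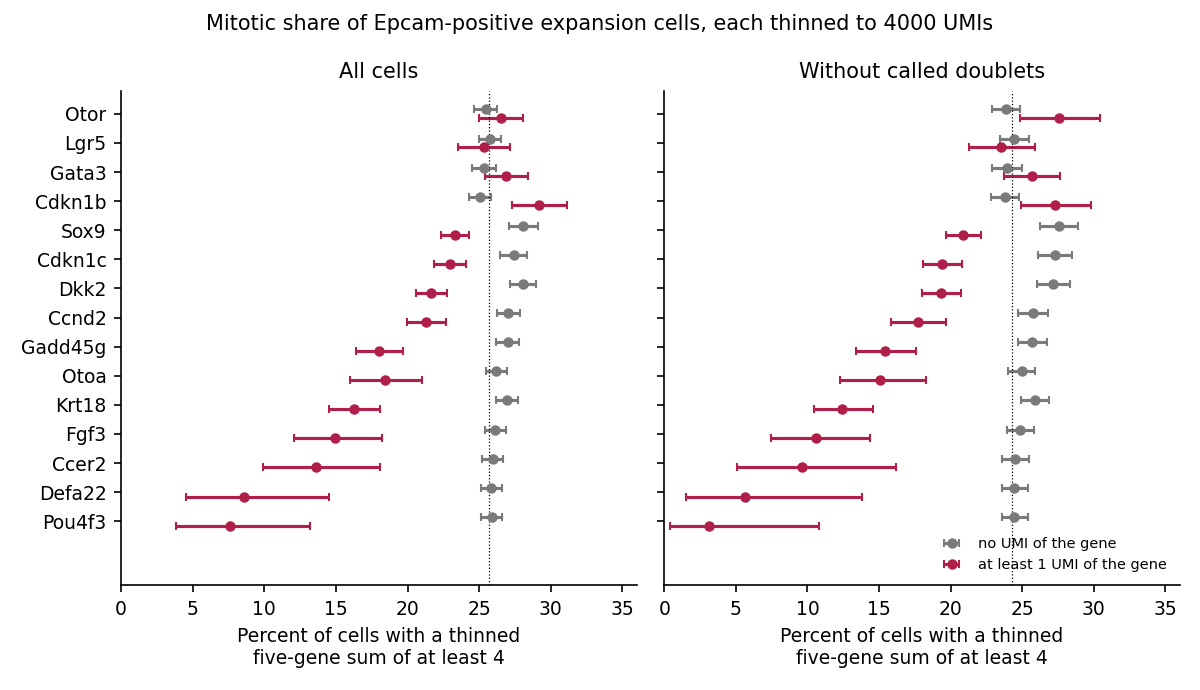
Percent of Epcam-positive expansion cells with a 5-gene sum of at least 4 after thinning to 4000 UMIs (horizontal axis), for cells with and without a UMI of the named gene (rows), over all cells (left) and without called doublets (right); bars are exact 95% intervals and dotted lines the share of all cells. Intervals for Lgr5 overlap, and cells with a Pou4f3 UMI lie lowest, at 7.59% and 3.13%.

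The mitotic cells were not alike in S phase genes. They were parted by the UMIs of the S phase list in each cell thinned to 4000 UMIs, with bounds set after the values were seen: 1340 cells held 8 or fewer (S-low), 2141 held 9 to 15 and 1228 held 16 or more (S-high). Median depths were 13851 UMIs in S-low and 15066 in S-high cells, and called doublets 56.9 and 51.3%. Both ends had been chosen for a 5-gene sum of at least 8, so the levels of the 5 defining genes in them are a description. Of the 5 defining genes 0 were past 1.5-fold, with Ube2c at 591 CPM in S-low and 547 CPM in S-high cells and Cenpf at 297 and 281 CPM, Aspm at 41.3 and 41.98 CPM, Plk1 at 56.7 and 67.3 CPM (ratio 0.843, 0.780 to 0.912) and Tpx2 at 120 and 141 CPM (0.854). Ccnb1 was at 115 and 113 CPM and Cdc20 at 102 and 89.9 CPM. Other late-cycle genes were lower in S-low cells, 5 of 10 of chromosome condensation (median log2 ratio -0.62) and 3 of 7 mitotic kinases (-0.545). Pclaf was at 302 and 777 CPM, Pcna at 24.8 and 66.8 CPM and Mcm5 at 24.4 and 61.9 CPM, which the split itself fixes. Top2a, of the condensation list, was at 304 and 454 CPM.

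Over 5721 genes with at least 20 CPM in either end, 1.14% were higher in S-low cells and 3.44% lower. Among the 15 glycolysis and hypoxia genes 5 were higher and 0 lower (median log2 ratio 0.45). Without called doublets their median was 0.78, and the share of all genes past 1.5-fold was not taken there. Car9, a carbonic anhydrase and a classic hypoxia gene, was at 31.3 CPM in S-low, 17.7 CPM in middle and 10.1 CPM in S-high cells (ratio of S-low to S-high 3.11, 2.65 to 3.65). Bnip3, also induced by hypoxia, was at 159, 112 and 82.1 CPM, and Pgk1, of glycolysis, at 1197, 873 and 692 CPM. Reference cells parted at the same bounds had 30.9 and 9.84 CPM of Car9, a difference of like size. S100a6 was at 243 and 72.4 CPM in S-low and S-high mitotic cells, Krt18 at 40.5 and 19.0 CPM, Cdkn1c at 186 and 112 CPM and Mxd4 at 47.5 and 21.7 CPM. Lgr5 was at 58.5 and 55.8 CPM. Gadd45g, at 52.3 and 25.4 CPM, was short of 1.5-fold without called doublets (log2 0.37).

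Markers of other cell types moved with this split, and their part in it was not tested. Otor was at 179 CPM in S-low and 84.8 CPM in S-high cells, and without called doublets at 145 and 21.2 CPM (log2 2.71), a larger log2 ratio than that of Car9 there (1.95). Pou3f4 (18.6 and 7.76 CPM), Tbx18 (18.6 and 8.44 CPM) and Emcn (55.2 and 27.3 CPM) went the same way. Dcn, at 328 and 429 CPM, and Lum, at 232 and 299 CPM, went the other way. The 16 mesenchyme markers summed to 839 CPM in S-low and 892 CPM in S-high cells, and Dcn and Lum gave most of both sums. After thinning, a Dcn UMI was present in 65.45% of mitotic and 57.7% of reference cells, but in 8.40% of Epcam-negative cells of sum 0 or 1. Dcn thus did not mark those Epcam-negative cells, 85.4% of which held an Otor UMI. Of the 4 mesenchyme markers with at least 20 CPM 1 was higher, and the 5 endothelial markers summed to 57.9 and 29.0 CPM. Emcn alone gave 55.2 and 27.3 CPM of the endothelial sums. In reference cells parted at the same bounds Otor was at 173 and 209 CPM.

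**Figure D5:**
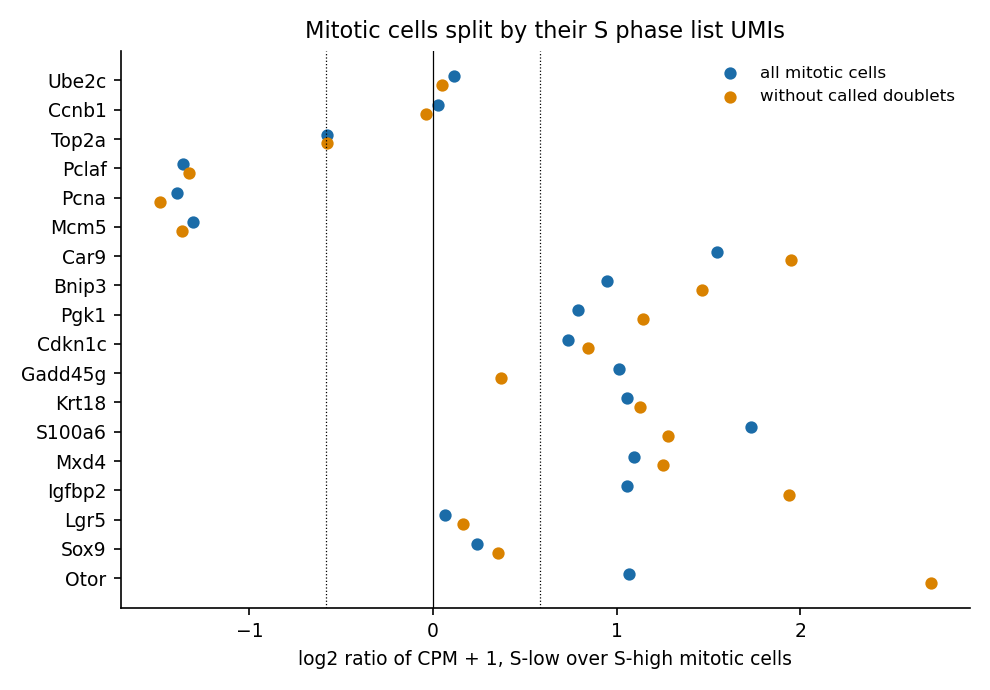
Log2 ratio of CPM + 1 between mitotic cells with few (S-low) and many (S-high) UMIs of the S phase list (horizontal axis) for 18 genes, over all mitotic cells and without called doublets; dotted lines are 1.5-fold. Pclaf, Pcna and Mcm5 lie left, as the split fixes, Ube2c, Ccnb1 and Lgr5 lie near 0, and Car9, with 31.3 against 10.1 CPM, and Otor, with 179 against 84.8 CPM, lie right.

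Cells without Epcam, which the rule left out, were parted by the same 5-gene sum and compared in the same way. In the expansion library 740 cells had no Epcam UMI, at least 4000 UMIs and a 5-gene sum of at least 8, and 1477 had a sum of 0 or 1. Their median depths, 6228 and 4592 UMIs, lay closer together than those of the Epcam-positive classes, and 11.4 and 8.19% of them were called doublets. Since the sum chose these cells too, the direction of their late-cycle genes is no independent evidence. The median log2 ratio was 1.74 for cyclins and entry factors and 1.95 for kinetochore genes. Ccnb1 was at 195 and 19.8 CPM and Top2a at 464 and 116 CPM. The median log2 ratio over all 5628 genes was 0.03 in these cells. The share of all genes past 1.5-fold was not taken, so lists are given by their medians. The S phase list went the other way there, with a median of -0.35. Pclaf was at 292 and 225 CPM and Ung at 5.604 and 29.5 CPM. Lockd (log2 2.39), Arl6ip1 (2.22) and Tuba1c (2.33) were higher. Of the 15 genes with the largest ratios downwards, S100a6 (-0.36), Gadd45g (-0.33) and S100a11 (-0.29) were short of 1.5-fold. The others were lower here too, Defa22 (-5.17), Ccer2 (-4.27), Pcp4 (-3.27) and S100a13 (-2.94) the most. Several of them, such as Krt18 (3.92 and 7.99 CPM), lay under 20 CPM in both Epcam-negative classes. The difference between the Epcam-positive and Epcam-negative values was not tested.

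The 24 cells of day 5 that met the rule held a median of 14.5 UMIs of the 5 genes (8 to 76) and 3 UMIs of Epcam, against a median of 11 in the 6931 reference cells of that library, and 9 were called doublets. Ube2c stood at 441 CPM in them (386 to 501), Cenpf at 284 CPM (240 to 333) and Top2a at 278 CPM (234 to 327), with 1.56, 1.90 and 1.88 CPM in the reference cells of day 5. Otor was seen in 21 of the 24, with a median of 30 UMIs, and Pou3f4, a mesenchyme gene, in 15, against 67.1 and 17.9% of the reference cells. Gata3 was seen in 14, against 85.6%. Other mesenchyme genes did not follow Otor and Pou3f4: Dcn was seen in 19, against 89.1%, Col1a2 in 2, against 6.95%, and Postn in 1, against 2.35%. The epithelial gene Cdh1 was seen in 8, against 34.2%, and Epyc in 22, against 89.6%. Cells were not thinned for these counts. Median depths were 18096 UMIs in the 24 cells and 8608 in the reference cells, and the part of depth was not tested. Of the 24 cells, 8 held 1 Epcam UMI, so these counts stand on few UMIs of the gene that selects epithelial cells.

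The 5 cells of day 25 held 15 to 62 UMIs of the 5 genes and a median of 73 UMIs of Epcam, and 1 was a called doublet. Cenpf stood at 323 CPM (250 to 410), Ube2c at 178 CPM (126 to 246) and Mki67 at 164 CPM (114 to 229), against 1.95, 0.405 and 1.45 CPM in reference cells of day 25. Gata3 was seen in all 5 and Pou3f4 in 0; Pou4f3 was seen in 1, with 23 UMIs. Fewer than 25 cells per library allow no list of changed genes for either day.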

How the data were processed

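The deposited files hold raw UMI counts per gene and barcode, 1 matrix per library. Per the file headers, they came from Cell Ranger 3.0.1 (expansion, day 5) and 3.1.0 (day 25). The builds GRCm38 and hg38 are named in the submitters' processing notes, and other settings are not given in the sources used here. Barcodes with at least 500 genes and at most 20% mitochondrially encoded UMIs were kept, 27996 in expansion, 13850 on day 5 and 6264 on day 25. Total counts were 207026905, 140255047 and 76296949. How the authors chose barcodes is not given there either.

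Counts were summed over the cells of a class and scaled to CPM. A gene was compared at 20 CPM or more in either class and called from 1.5-fold of CPM + 1. Intervals are exact (Poisson, Clopper-Pearson, or binomial conditional on the sum for ratios, all 95%) and cover counting error only, and 3 UMIs is the limit that a count of 0 allows. Doublets were called by the share of simulated doublets among a barcode's neighbours, as many as a rate of 0.8% per 1000 barcodes gives (22.4% of expansion barcodes, which took 77.7% of simulated doublets past the same score). Cells were thinned to 4000 UMIs at random with a fixed seed. The depth-weighted reference gives each bin of 0.25 log2 UMIs the weight it has among mitotic cells, over bins with at least 20 reference cells. The steps of calling were tested on simulated data.

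The members and the gene lists were chosen with earlier results of these data known. Genes are named from the defining genes, the lists, and the 15 other genes with the largest ratio in each direction at 50 CPM or more, leaving out ribosomal, mitochondrial and histone genes and unnamed models. Some genes that this rule names are not reported here. Aldoa was left out, since its symbol stands for more than 1 identifier. Genome positions are from GENCODE M21, which matched 31011 of 31053 identifiers. Alternatives changed the scaling, the bounds of the classes, the thresholds, the reference's depth and the treatment of doublets. Work was done in Python 3.11.15 with numpy 2.4.6, scipy 1.17.1, pandas 2.3.3 and matplotlib 3.10.9.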

Additional observations from a re-analysis of the deposited data

How the results depend on the processing

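No replicate could be left out and no paired analysis was possible because each group held 1 library, so the classes of cells and the days rest on that library alone. The count of fixed cycle genes higher in mitotic cells (108) stayed within 1.5 times under every alternative run. The 186 genes outside the lists that were higher became 284 without called doublets, 364 at 5 CPM or more, 48 at 2-fold, and 406 without called doublets and with depth weighting together, an alternative chosen after seeing the data. The 87 lower genes became 166 with depth weighting, 188 without called doublets, 211 at 5 CPM or more, 18 at 2-fold and 318 with both. The mitotic share of expansion cells, 32.4%, became 16.6% at a sum of 16 or more, 25.7% after thinning, 34.8% at 3 or more Epcam UMIs and 24.6% without called doublets. On day 5 the share of 0.340% became 0.127% at a sum of 16 or more, and on day 25 the share of 0.108% became 0.0215% after thinning. Emcn reversed, from a log2 ratio of -0.67 to 0.54 with depth weighting and 0.92 with doublets removed as well. Of 2076 values of the 173 genes followed singly, 75, from 24 genes, lay on the other side of 0 from the value reported; the 2 of Emcn were the ones whose reported value was past 1.5-fold. The causes were not tested, other than that a lower level or fold bound admits more genes by construction. TMM and median of ratios scaling left the median log2 ratio of all genes at 0.08, against 0.10.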
